A study of Mus musculus with 32 samples.

Results

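The mitochondrial respiratory chain is built from proteins of both genomes of the cell, and the subunits described here are those encoded in the nucleus. They were taken by gene name from the annotation of an Agilent mouse array: the Nduf genes of the a, b, c, s and v series, the Uqcr genes, Sdha to Sdhd, the Cox genes numbered from Cox4 to Cox8 with an isoform letter, and the Atp5 genes. The rule found 81 genes on 120 probes, among 34836 gene names on 55681 probes, and used no measured value. Of these, 37 belong by name to complex I, 4 to complex II, 8 to complex III, 16 to complex IV and 16 to complex V, the last including the pseudogene Atp5c1-ps. The number tested was 79, since Cox8c and Cox7b2, 2 oxidase isoforms outside their usual tissues, were well above background on 0 of 32 arrays. The remaining members were measured almost everywhere, with 77 to 79 of them well above background on each array and no saturated spot.

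Livers came from male C57/BL6 mice in 8 groups of 4, and 1 array was hybridised per liver. The first 4 groups received a standard diet for 3 weeks, a methionine- and choline-deficient (MCD) diet for 3 weeks, the standard diet with a dual agonist of the GLP1 and glucagon receptors (4.4 mg/kg/day, given on alternate days for 2 weeks), or the MCD diet for 3 weeks with the same agonist after the opening week. The other 4 groups had the same diets and treatments before and after a 70% partial hepatectomy and were sampled 2 weeks after it, so they were also on diet and agonist for longer. The MCD diet is a dietary model that gives fatty, inflamed liver without obesity, which limits it as a model of the human disease. All values are from whole liver, so that fewer cells of a type and less RNA per cell cannot be told apart, and the number of arrays limits the precision.

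Complex I takes electrons from NADH and complex II takes them from succinate, both pass them to ubiquinone, complex III moves them on to cytochrome c, and complex IV hands them to oxygen, while complex V uses the proton gradient to make ATP. Liver depends on the chain for fatty acid oxidation, gluconeogenesis and urea synthesis. Several complex IV subunits exist as pairs of isoforms encoded by separate genes, with Cox6a1 and Cox7a2 present in most tissues including liver and Cox6a2, Cox7a1 and Cox8b known from heart and skeletal muscle.

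The oxidase isoform genes carried the largest changes and Uqcrc1 the most frequent ones, so 2 of their probes are shown as they stand on the array. Each is 60 bases long and lies across a splice junction, since it spans 612 bases of the mm9 genome for Cox7a1 and 480 for Uqcrc1.
Cox7a1, chr7:30970337-30970948, plus strand: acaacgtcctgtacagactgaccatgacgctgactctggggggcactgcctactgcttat
Uqcrc1, chr9:108851008-108851487, plus strand: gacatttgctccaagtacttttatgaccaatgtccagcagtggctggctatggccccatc
The Cox6a2 probe is the single probe of its gene and lies at chr7:135349160-135349219 on the minus strand of mm9.

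The 250 bases before the start of 4 genes are shown from RefSeq (GRCm38.p6), because the tissue isoform that changed (Cox7a1), the general isoforms that did not pass the test (Cox6a1, Cox7a2) and a complex I subunit that rose with the diet (Ndufa8) can be set beside each other. Capitals mark matches, on either strand, to the motif of nuclear respiratory factor 1 (NRF1), CCGGAAG (the ETS family, which includes the GABP factor), AAGATGGCG (YY1) or TCAAGGTCA (estrogen-related receptors).
Cox6a1, chr5:115348959-115349208, minus strand: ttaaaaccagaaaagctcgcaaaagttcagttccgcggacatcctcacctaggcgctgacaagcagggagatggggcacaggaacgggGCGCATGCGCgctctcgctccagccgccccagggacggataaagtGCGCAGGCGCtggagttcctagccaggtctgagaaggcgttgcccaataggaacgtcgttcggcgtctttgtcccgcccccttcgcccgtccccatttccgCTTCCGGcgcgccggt
Cox7a1, chr7:30183921-30184170, plus strand: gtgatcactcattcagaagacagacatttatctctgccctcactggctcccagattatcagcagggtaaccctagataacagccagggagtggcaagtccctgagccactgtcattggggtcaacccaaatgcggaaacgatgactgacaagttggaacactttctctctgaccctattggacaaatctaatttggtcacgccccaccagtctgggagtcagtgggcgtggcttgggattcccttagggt
Cox7a2, chr9:79759854-79760103, minus strand: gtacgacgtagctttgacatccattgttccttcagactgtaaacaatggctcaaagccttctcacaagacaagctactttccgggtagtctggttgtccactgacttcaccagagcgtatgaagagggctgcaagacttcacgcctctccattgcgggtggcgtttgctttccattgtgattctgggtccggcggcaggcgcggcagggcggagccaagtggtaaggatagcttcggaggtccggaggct
Ndufa8, chr2:36049339-36049588, minus strand: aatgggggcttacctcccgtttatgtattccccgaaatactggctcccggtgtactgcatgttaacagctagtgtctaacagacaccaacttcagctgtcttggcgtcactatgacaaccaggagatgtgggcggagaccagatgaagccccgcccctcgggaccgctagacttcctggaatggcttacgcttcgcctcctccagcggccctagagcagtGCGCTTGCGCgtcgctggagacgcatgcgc
Cox6a1 held 2 NRF1 matches and 1 ETS match and Ndufa8 held 1 NRF1 match, while these letters were not in the windows of Cox7a1 and Cox7a2. Over windows of 250 bases before to 50 after the start, 67 of the 81 members had an entry. NRF1 letters were in 17 of them (25.4%) against 5.19% of 27025 genes, ETS letters in 16 (23.9%) against 9.93%, YY1 letters in 7 (10.4%) against 1.64%, and estrogen-related receptor letters in 2 (2.99%) against 0.466%. The TATA box letters TATAAA were in 7 (10.4%) against 15.7%. Among the 23 members with an entry that passed a test in any comparison, NRF1 letters were in 5 (21.7%) and ETS letters in 4 (17.4%). A match is a description of the letters in the window and not of binding.

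Before the comparisons, 3 features of the series bear on them. Each slide held 2 groups: the 2 baseline groups without agonist, the 2 baseline groups with agonist, the 2 standard-diet groups after hepatectomy, and the 2 MCD groups after hepatectomy. Both diet comparisons at baseline and both agonist comparisons after hepatectomy therefore lie within a slide. The 2 groups of a slide filled different rows of it, so array row and group cannot be told apart in these comparisons. In the other pairwise comparisons slide and group cannot be told apart, and the comparisons of hepatectomy with baseline also changed scanner. In addition, 3 arrays stood apart from their groups on a scale built from 100 genes outside the chain that separated the diets after hepatectomy (0 for the standard-diet mean, 1 for the MCD mean): the third array of the MCD diet with agonist (0.467, others 0.586 to 0.756), the first of the standard diet after hepatectomy (0.337, others -0.145 to -0.0693) and the fourth of the standard diet with agonist after hepatectomy (0.344, others 0.0327 to 0.0677). For the MCD array with agonist, the gap to the next array was smaller than the range of the others in its group. It was thus only the lowest of its group, and these 3 arrays were chosen after seeing the data. Results that rest on the 3 arrays are given without them too. Lastly, 16 of the 32 columns of the submitters' processed table matched best the scanner array of another group, the MCD diet being exchanged with the standard diet with agonist both before and after hepatectomy. On the scanner arrays the position of the MCD group was 0.756 to 0.825 and that of the standard diet with agonist -0.0578 to 0.0505. The scale itself rests on the labels of the scanner arrays, so these positions cannot decide between those labels and the table's. All results follow the scanner arrays as labelled, and the diet and agonist results depend on that choice.

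Levels are log2 signals over the 75th percentile of the array, so that 0 is that percentile. A change is a difference of group means on this scale from 1 limma model over the 8 groups, and a gene passed when its Benjamini-Hochberg adjusted p over 21756 genes was under 0.05. Across 14 comparisons 28 of the 79 subunits passed at least once and 51 never did, giving 59 changes in all. How many of all genes passed at least once was not counted, so these numbers do not set the subunits apart. Uqcrc1 passed in 6 comparisons, Cox6a2, Ndufa4l2 and Uqcrb in 4 each, and Cox7a1, Ndufa8, Ndufb11, Ndufc1, Ndufc2 and Uqcrfs1 in 3 each. The comparisons share groups and arrays, so these counts are not independent results. The subunits had a median SD within groups of 0.356 against 0.457 over all genes tested, with no matching for signal strength. The highest SDs among them were those of tissue isoforms, 1.07 for Cox6a2, 0.756 for Cox7a1 and 0.735 for Cox8b.

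**Figure D1:**
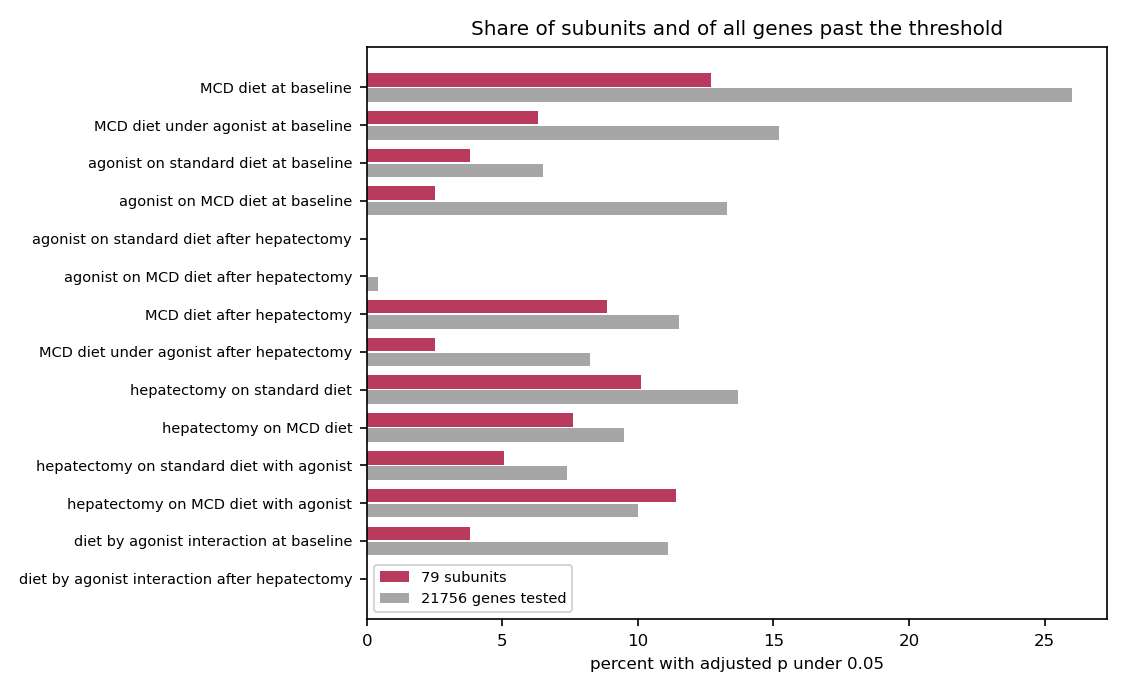
The horizontal axis gives the percent of genes with an adjusted p under 0.05 in each of the 14 comparisons, for the 79 subunits (red) and all 21756 genes tested (grey). The subunits' share was below that of all genes in every comparison except hepatectomy on the MCD diet with agonist (11.4% against 10%).

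On the MCD diet at baseline, changes of the subunits went in both directions and were strongest in isoforms of complex IV. Of the 79, 5 rose and 5 fell, or 12.7%, against 26% of all genes tested. The median change was -0.07 (-0.065) over the subunits and -0.13 (-0.133) over all genes. With arrays scaled to their median the split was 11 higher and 1 lower, and with quantile normalization 9 and 3, while the median of all genes moved to 0.23 (0.234) under the former. By complex the counts were 3 higher and 2 lower of 37 in complex I, 0 of 4 in complex II, 1 and 1 of 8 in complex III, 1 and 2 of 14 in complex IV and 0 of 16 in complex V. Median absolute change was 0.271 for the subunits against 0.524 for all genes.

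Cox6a2, the muscle form of subunit VIa, was low on the standard diet and high on the MCD diet. Its levels on the 4 standard-diet arrays were -3.04, -2.18, -3.03 and -2.71, and on the MCD arrays 0.61, 0.92, 1.25 and 0.66. The groups did not overlap, and the difference of 3.60 (SE 0.705, 12.1-fold) had a limma adjusted p of 0.000543. With the agonist the standard-diet arrays were at -3.38, -2.55, -2.35 and -2.54 and the MCD arrays at 0.29, 0.64, -2.73 and 1.23. The third MCD array, also the lowest of its group on the diet scale, lay within the standard-diet range. With it the difference was 2.56 (SE 0.705, adjusted p 0.0129). Without that array it was 3.43 (3.425, adjusted p 0.00063), and without the fourth MCD array with agonist in its place it was 2.11 with an adjusted p of 0.0582.

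After hepatectomy the same contrast was present without and with agonist. Cox6a2 was at -6.47, -1.45, -2.42 and -2.08 on the standard diet, the lowest value being not well above background, and at 0.64, 0.9959, 0.28 and 0.98 on the MCD diet. This gave a difference of 3.83 (SE 0.705, 14.2-fold, adjusted p 0.000653), which was 2.71 (adjusted p 1.09e-06) without the arrays that stood apart. With agonist the values were -2.93, -2.49, -2.32 and -2.55 against 0.12, 0.98, 1.12 and 0.22, a difference of 3.19 (3.185, 9.1-fold, adjusted p 0.00439). Of 16 MCD arrays, 15 were above every one of the 16 standard-diet arrays. In the submitters' table as deposited the baseline difference without agonist was 0.07 (0.07109), the table's MCD columns being those that match other arrays.

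Cox7a1, the muscle form of subunit VIIa, moved the other way. Its levels were 2.01, 2.94, 2.75 and 2.71 on the standard diet and 0.43, 0.93, 1.48 and 0.36 on the MCD diet, with no overlap and a difference of -1.80 (SE 0.504, 3.49-fold lower, adjusted p 0.00942). With agonist at baseline the levels were 2.76, 1.91, 2.39 and 3.36 against 1.28, 1.48, 3.53 and 1.04, and the difference of -0.77 did not pass (adjusted p 0.331). Without the third MCD array it was -1.34 (-1.338, adjusted p 0.0552). The third MCD array with agonist was the highest of these 8 for Cox7a1 and the lowest of the MCD arrays for Cox6a2. Following hepatectomy Cox7a1 was at 1.02, 1.34, 1.88 and 2.32 on the standard diet and at 0.04, -0.47, -0.04 and -0.23 on the MCD diet, a fall of 3.51-fold (-1.81, adjusted p 0.0184). Leaving out the third or the fourth standard-diet array or the second MCD array brought its adjusted p to between 0.0536 and 0.0703. Without the first standard-diet array, which stood apart, the difference was -2.02 (-2.019, adjusted p 0.0125). With agonist after hepatectomy the difference was -1.74 (adjusted p 0.0287) with overlapping arrays, 2.67, 2.46, 2.62 and 0.92 against 1.86, -0.21, -0.77 and 0.83. The call was lost on leaving out any of 5 of the 8 arrays (adjusted p up to 0.14). Without the fourth standard-diet array, which stood apart, the difference was -2.16 (-2.158, adjusted p 0.0071). Without the first MCD array it was -2.22 (-2.219, adjusted p 0.006).

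**Figure D2:**
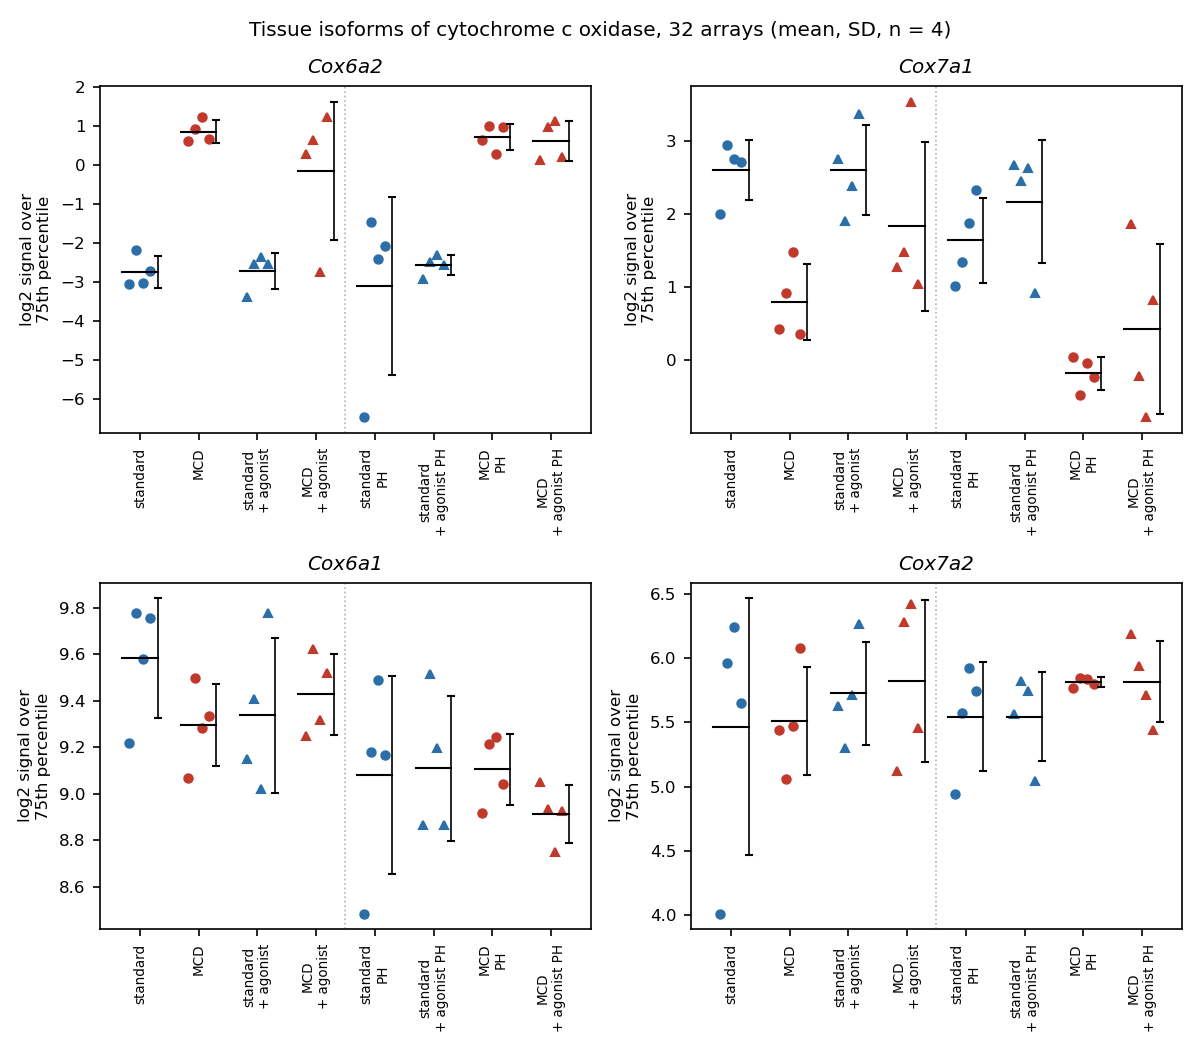
Each panel plots the log2 signal over the array's 75th percentile for an isoform gene on the 32 arrays, with blue for the standard diet, red for MCD, circles without and triangles with agonist, a bar for the mean and an error bar for the SD (n = 4). PH is partial hepatectomy, right of the dotted line. Cox6a2 lies near or above 0 on the MCD arrays except for the value of -2.73, Cox7a1 is lower on MCD except with agonist before hepatectomy, where it did not pass, and the general isoforms Cox6a1 and Cox7a2 overlap between diets.

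The general isoforms did not follow these patterns. Cox6a1 differed between diets by -0.29, 0.09, 0.02 and -0.20 in the 4 diet comparisons and Cox7a2 by 0.05, 0.09, 0.27 and 0.27, with adjusted p at or above 0.318 and 0.69. Cox7a2l was 0.58 higher on MCD at baseline with an adjusted p of 0.0959. Cox8a, the liver form of subunit VIII, fell by 0.68 (adjusted p 0.044) with overlapping arrays, a call lost in 6 of 8 fits that left out an array (highest adjusted p 0.135). Cox8b, its muscle counterpart, was dim, with 20 of 32 arrays well above background, and did not pass. Cox6b1 and Cox6b2, the general and testis forms of subunit VIb, passed in none of the 4 diet comparisons.

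Because Cox6a2 and Cox7a1 are known from muscle, striated muscle markers were read on the same arrays. Actn3, Ckm, Mb and Myh1 were well above background on 0 of 32 arrays, Myh4 on 1, Mylpf on 2, Tnnt3 on 8, Myh7 on 13 and Acta1 and Myh2 on 14 each. The summed level of the 10 markers was -1.75 to -0.53 on the standard diet and -2.63 to -1.64 on the MCD diet. Only Myh2 of these markers was above background widely enough to be tested, and the others were not tested. It was well above background on 3 standard-diet and 0 MCD arrays at baseline, and on 3 and 0 after hepatectomy. Myh2 passed as lower in these 2 comparisons and under agonist after hepatectomy, where 0 MCD arrays were well above background. Cox7a1 was lower and Cox6a2 higher in all 3. The muscle markers' part in either result was not tested.

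In complex I the MCD diet at baseline raised Ndufc1 (1.45, SE 0.328, adjusted p 0.0019), Ndufc2 (1.11, SE 0.309, adjusted p 0.00943) and Ndufa8 (0.71, SE 0.261, adjusted p 0.0432), accessory subunits of which the Ndufc pair sits in the membrane arm. Ndufc1 was at 4.47, 4.02, 4.05 and 4.19 on the standard diet and at 5.27, 5.80, 5.81 and 5.63 on MCD. Ndufc2 was at 4.26, 4.42, 4.57 and 4.94 against 5.45, 5.54, 5.84 and 5.78. Neither pair of groups overlapped, and no single array removed either call. Standard diet at baseline was the group with the lowest mean for both genes, below every group with agonist or hepatectomy. Ndufa8, a twin cysteine-motif subunit, was at 3.40, 4.01, 3.86 and 3.76 against 4.12, 4.65, 4.61 and 4.50. Its call at baseline was lost in 6 of 8 fits without an array, but after hepatectomy its difference was larger.

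Ndufa8 on the standard diet after hepatectomy was at 2.74, 2.28, 3.17 and 3.67 and on MCD at 4.42, 4.44, 4.33 and 4.84. All MCD values were above all standard values, with a difference of 1.54 (SE 0.261, 2.91-fold, adjusted p 0.00026), and each of 8 fits without an array kept the call. With the arrays that stood apart left out it was 1.47 (1.465, adjusted p 0.000707). With agonist the diet difference in Ndufa8 was 0.34 (0.3376) at baseline and 0.64 (0.6408) after hepatectomy, and neither passed.

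Ndufa3, a small membrane subunit, fell by 1.05 on MCD at baseline (SE 0.226, 2.07-fold, adjusted p 0.00124) on the probe used, from 7.84, 8.51, 8.24 and 7.998 to 6.91, 7.41, 7.07 and 6.99. Its other probe, chr7:3569447-3569506 of mm9 on the plus strand and annotated to another transcript, showed 1.30 (adjusted p 0.0242), so the gene has no single direction here. The used probe lies at chr7:3571695-3571754. Ndufa4, now assigned to complex IV although it is named and counted here with complex I, was 0.65 lower without passing (adjusted p 0.169). Its relative Ndufa4l2, known to be induced in low oxygen and to take the place of Ndufa4, differed by -0.03 (adjusted p 0.934).

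Complex III held a pair of opposite changes at baseline. Uqcrfs1, the Rieske iron-sulfur protein that takes part in electron transfer, rose by 1.23 on MCD (SE 0.341, 2.34-fold, adjusted p 0.00891), from 4.73, 3.88, 4.21 and 4.21 to 5.15, 5.75, 6.14 and 4.91. Uqcrc1, a core protein of the matrix side, fell by 0.80 (SE 0.207, 1.74-fold, adjusted p 0.00581), from 5.86, 5.88, 5.58 and 5.60 to 4.999, 5.30, 4.80 and 4.65. Neither gene's groups overlapped. Uqcrb, Uqcrh, Uqcrq and Uqcr11 were lower by 0.34 to 0.50 without passing (adjusted p 0.0867 to 0.33).

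The 4 subunits of succinate dehydrogenase and the 16 of ATP synthase gave no call on MCD at baseline. Sdha, the flavoprotein, was 0.62 lower (adjusted p 0.104) and Sdhd, a membrane anchor, 0.53 higher (adjusted p 0.172), while Sdhb and Sdhc differed by -0.03 and -0.08. The widest values of complex V were -0.85 for Atp5k (adjusted p 0.0651) and 0.42 for Atp5j (adjusted p 0.355). Of the 3 genes for the same c subunit, Atp5g1 differed by -0.58 (adjusted p 0.128), Atp5g2 by 0.00 (-0.003832) and Atp5g3 by -0.29 (-0.2851). In no diet comparison did a complex II or complex V gene pass.

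Markers of other cells moved in the same comparison. Of 9 macrophage markers 7 rose on MCD (median change 1.57), and their summed level was 5.33 to 6.19 on the standard diet and 6.34 to 7.69 on MCD. Of 10 hepatocyte markers, all well above background on 32 arrays, 3 fell (median -0.689, summed level 12.7 to 13.2 against 12.2 to 12.5 (12.45)). Of 10 stellate cell and fibroblast markers 4 rose, and of 8 endothelial markers 1. Of 8 neutrophil markers 2 rose (median 1.37), of 8 lymphocyte markers 2 rose and 2 fell, of 4 adipocyte markers 1 rose and 1 fell, and 1 each fell of 4 erythroid and 8 pancreatic acinar markers. Their part in the subunit changes was not tested.

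**Figure D3:**
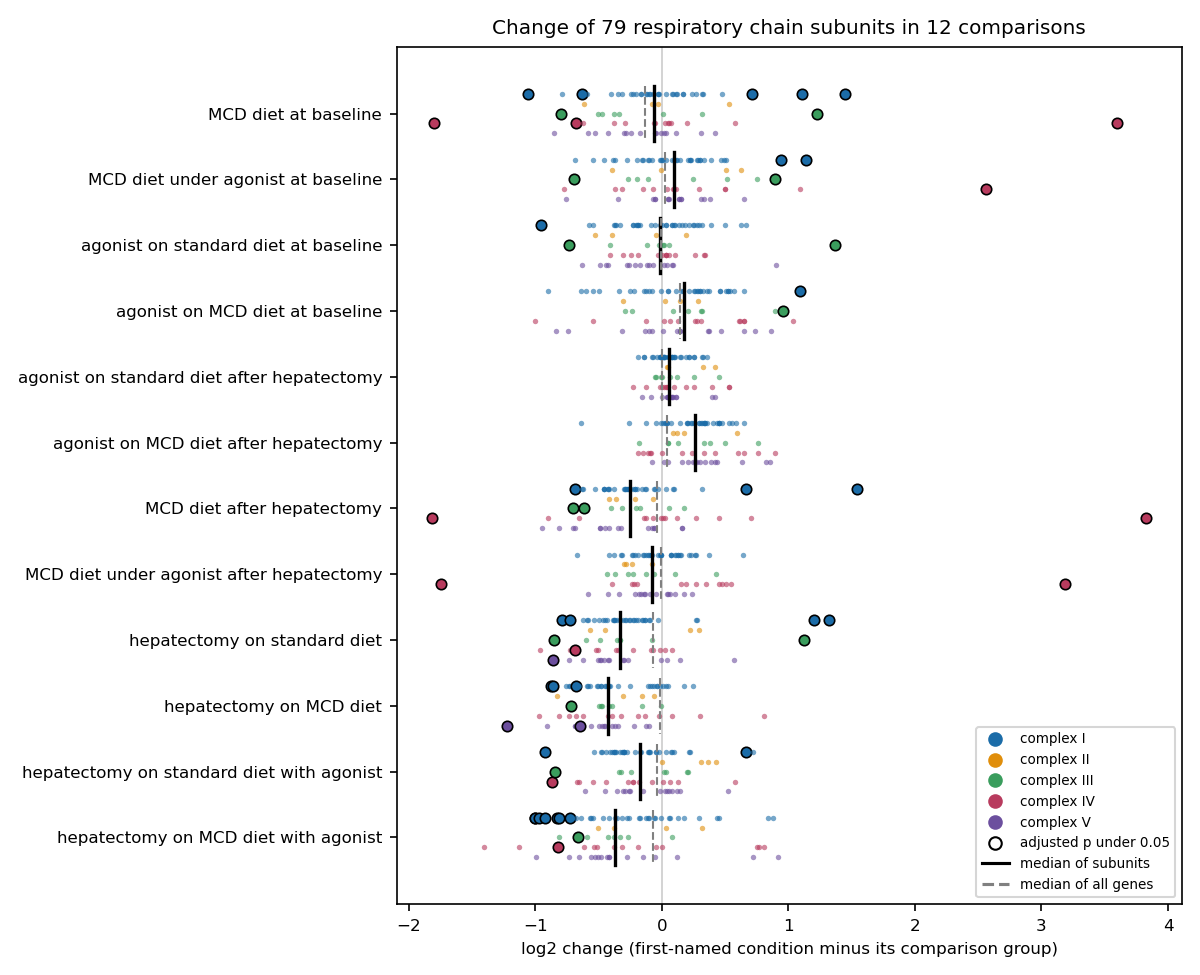
Each point is the log2 change of 1 of 79 subunits in 12 pairwise comparisons, coloured by complex, with large ringed points for an adjusted p under 0.05. The solid tick is the median of the subunits and the dashed tick that of all genes. The points furthest from 0 are Cox6a2 (up to 3.83) and Cox7a1 (down to -1.81) in the diet comparisons, and the 4 hepatectomy medians lie to the left of the medians of all genes.

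With the agonist at baseline, the MCD diet gave 4 rises and 1 fall among the subunits (6.33% against 15.2% of all genes), or 2 and 2 with arrays scaled to their median. The median was 0.09 (0.0928), with 0.03 (0.0255) for all genes. Apart from Cox6a2, the rises were in Ndufa4l2 (1.14, SE 0.194, adjusted p 0.000191), Uqcrc1 (0.89, adjusted p 0.0037) and Ndufc2 (0.94, adjusted p 0.0367), and Uqcrb, a small complex III subunit, fell by 0.69 (adjusted p 0.0402). The direction of Uqcrc1 was opposite to that without agonist. Ndufc2 overlapped between diets, and it and Uqcrb lost the call in 5 and 6 of 8 fits without an array. The calls numbered 3 without the first array on the standard diet with agonist, and also without any MCD array with agonist other than the fourth. Of 9 macrophage markers 4 fell in this comparison (median -1.27, summed level 6.95 to 7.47 on the standard diet and 5.59 (5.585) to 6.55 on MCD), and their part was not tested.

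The 3 tested probes of Uqcrb lie on top of each other and differ in their readings. The probe used shares 49 bases with another, with 0 mismatches, yet the changes under agonist were -0.69 and 0.03. The remaining probe, at 0.15, overlaps the latter in 34 bases with 2 mismatches, shown in capitals because they separate probes annotated to the same gene.
Uqcrb, probe at chr13:67001691-67001750: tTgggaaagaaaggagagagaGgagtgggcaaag
Uqcrb, probe at chr13:67001665-67001724: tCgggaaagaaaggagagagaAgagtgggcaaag
Both stretches are as printed on the array (mm9, minus strand). A change of Uqcrb is therefore that of the probe used, at chr13:67001654-67001713.

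After hepatectomy the MCD diet gave 3 rises and 4 falls (8.86% against 11.5% of all genes), or 3 and 1 with array median scaling and 3 and 7 with quantile normalization. The subunits' median was -0.249 with 17 of 79 above 0, and that of all genes -0.0354. Without the 3 arrays that stood apart the calls were 3 higher and 9 lower and the median was -0.42. Beside Cox6a2, Cox7a1 and Ndufa8, the calls were Uqcrc1 (-0.70, adjusted p 0.027), Ndufa6 (-0.69, adjusted p 0.0476, overlapping arrays), Uqcr11 (-0.61, adjusted p 0.0488) and Ndufa7 (0.66, adjusted p 0.0345), each lost in 6 of 8 fits without an array. The calls numbered 2 without the third or the fourth standard-diet array or the second MCD array, and 3 without the second standard-diet or first MCD array. Uqcrc1 was at 4.999, 5.34, 5.40 and 5.23 on the standard diet and at 4.58, 4.61, 4.62 and 4.36 on MCD. Of 8 neutrophil markers 5 rose on MCD in this comparison (median 2.72, summed level 3.54 to 5.25 (5.245) on the standard diet and 5.80 to 7.53 (7.525) on MCD). Of 10 stellate cell and fibroblast markers 3 fell, of 5 cholangiocyte markers 1 fell, and 1 each rose of 4 adipocyte and 8 pancreatic acinar markers. Their part in the subunit changes was not tested.

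Under agonist after hepatectomy the diet gave 1 rise and 1 fall, Cox6a2 and Cox7a1 (2.53% against 8.25%), with the fall lost under array median scaling. The median was -0.0741 against -0.00377 for all genes.

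**Figure D4:**
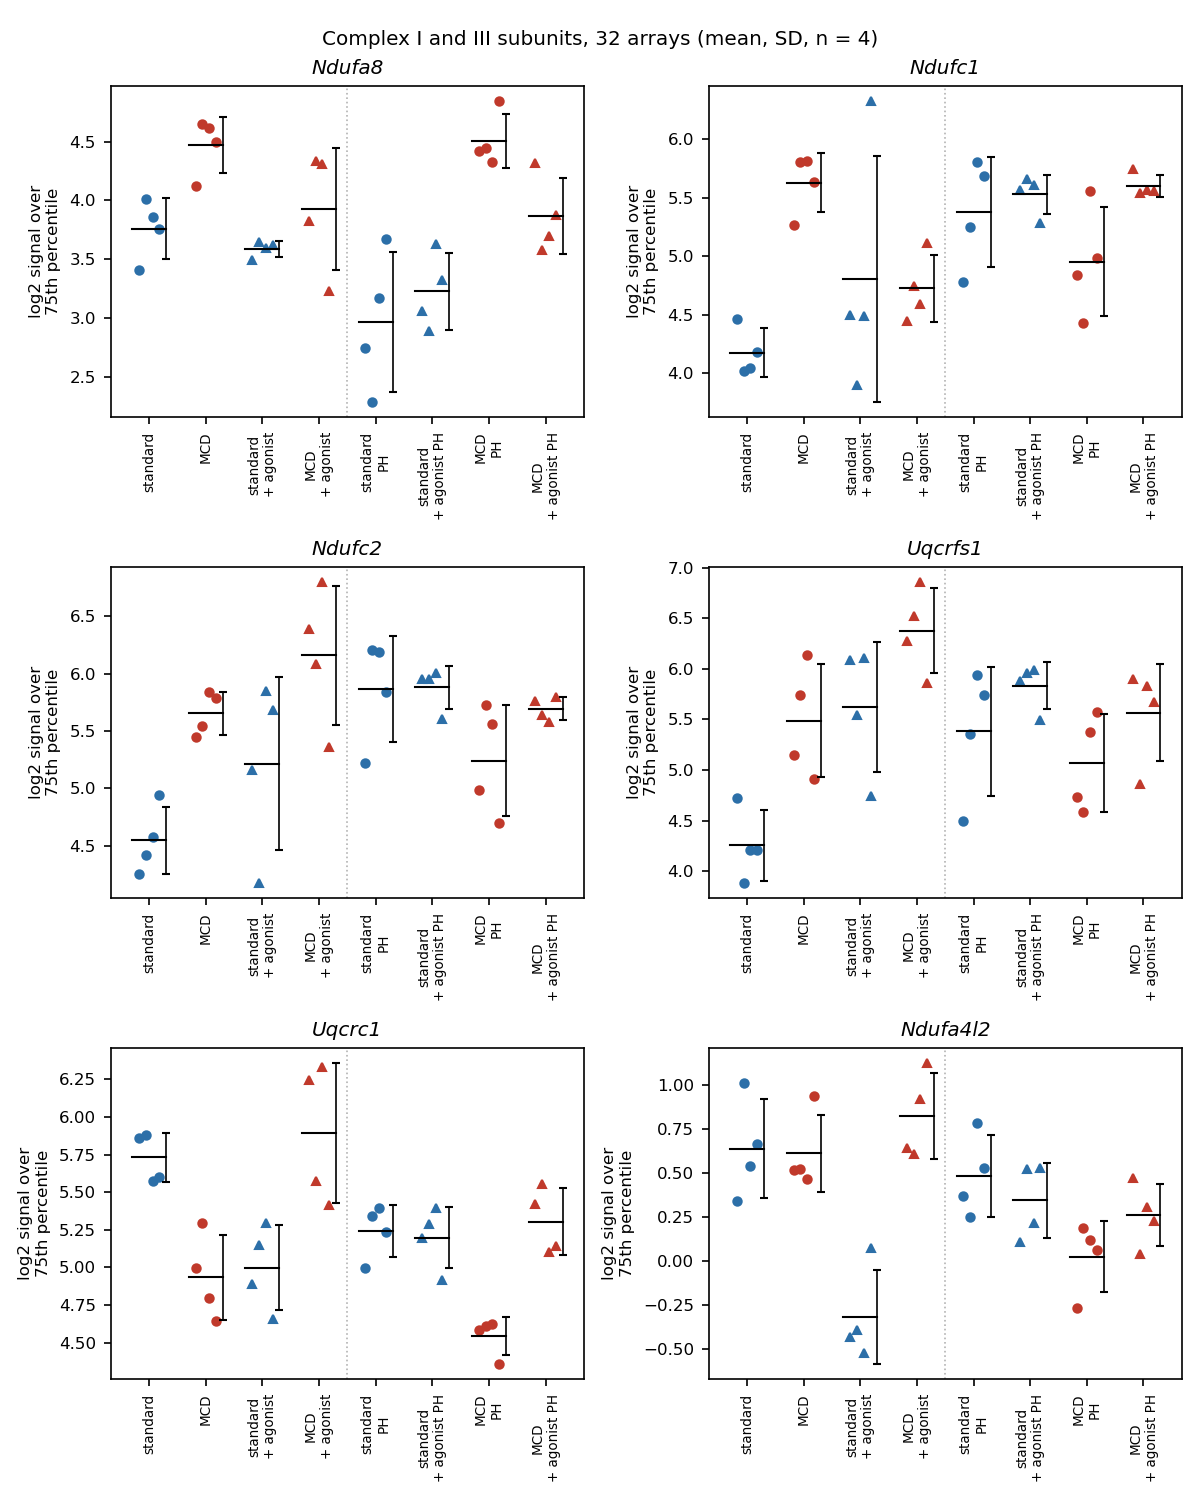
Panels plot the log2 signal over the array's 75th percentile for 6 complex I and III genes on the 32 arrays, with colours and shapes by diet and agonist (blue standard, red MCD, triangles with agonist), bars for means and error bars for SD (n = 4). Ndufc1, Ndufc2 and Uqcrfs1 are lowest on the standard diet at baseline, Ndufa8 is higher on MCD without agonist, and Uqcrc1 at baseline falls with MCD alone and with agonist alone but not with both.

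The agonist acts on receptors for GLP1 and glucagon, a hormone that drives hepatic glucose output and fatty acid oxidation. Few subunits passed for it. On the standard diet at baseline 1 rose and 2 fell (3.8% against 6.51% of all genes), or 1 and 1 with array median scaling. Uqcrfs1 rose by 1.37 (1.365, 2.58-fold, adjusted p 0.0177), from the levels given above to 6.09, 5.55, 6.11 and 4.75. Ndufa4l2 fell by 0.96 (1.94-fold, adjusted p 0.00455), from 0.34, 1.01, 0.54 and 0.66 to -0.43, -0.39, -0.52 and 0.08, without overlap. Uqcrc1 fell by 0.73 (1.66-fold, adjusted p 0.033) to 4.89, 5.15, 5.29 and 4.66. Without the second standard-diet array or the first with agonist 1 call was left. Of 9 macrophage markers 4 rose (median 1.57), and their part was not tested. Slide and agonist cannot be told apart in this comparison or the next.

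On the MCD diet at baseline 17 subunits had an unadjusted p under 0.05 for the agonist, and it gave 2 rises and no fall (2.53% against 13.3%). The split was 0 higher and 6 lower with array median scaling and 2 and 2 with quantile normalization, while the median of all genes was 0.15 (0.145) as scaled here and -0.20 (-0.201) with the former. Uqcrc1 rose by 0.96 (SE 0.207, 1.94-fold, adjusted p 0.00407) to 6.25, 5.58, 6.33 and 5.41. Ndufb11, an X-linked membrane-arm subunit, rose by 1.09 (SE 0.285, 2.13-fold, adjusted p 0.0125), from 6.52, 7.09, 7.23 and 6.06 to 7.65, 7.78, 8.22 and 7.62. Its 3 probes did not share a direction, the lowest showing -0.45. Cox6a2 differed by -1.002 (adjusted p 0.357) and Cox7a1 by 1.03 (adjusted p 0.169), neither passing. Without the third array with agonist these differences were -0.14 (-0.1386, adjusted p 0.922) and 0.47 (0.4673, adjusted p 0.586). Calls numbered 1 without the fourth MCD array or the third with agonist, the lowest of its group on the diet scale, and 6 without the fourth with agonist. Of 9 macrophage markers 3 fell (median -1.26), and their part was not tested.

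After hepatectomy no subunit passed for the agonist in limma. On the standard diet 0 of 79 passed, 0 had an unadjusted p under 0.05, and 0.00919% of all genes (2 genes) passed. On MCD, 0 passed, 10 had an unadjusted p under 0.05, and 0.404% of all genes passed. The agonist changes on MCD were above 0 in 67 of 79 subunits, with a median of 0.263 against 0.0385 for all genes. This median was between 0.156 and 0.287 in the alternatives run, except -0.07 (-0.0709) in the submitters' table as deposited. Its largest values were 0.89 for Cox7b (adjusted p 0.272), 0.86 for Atp5b (adjusted p 0.333) and 0.82 for the pseudogene Atp5c1-ps (adjusted p 0.354), and the lowest adjusted p was that of Uqcrc1 (0.76, SE 0.207, adjusted p 0.0909). Of 8 neutrophil markers 0 passed in this comparison (median -2.25, summed level 5.80 to 7.53 (7.525) without and 3.56 to 6.22 with agonist), and their part was not tested. Both groups of each of these comparisons shared a slide, on which they filled different rows.

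The diet effect differed between mice with and without agonist at baseline for 3 subunits, 2 higher and 1 lower, by the interaction term of the model (3.8% against 11.1% of all genes). For Uqcrc1 the interaction was 1.69 (SE 0.293, adjusted p 0.000977): the diet change was -0.80 without and 0.89 with agonist. For Ndufa4l2 it was 1.17 (SE 0.274, adjusted p 0.00739), with diet changes of -0.03 and 1.14. For Ndufc1 it was -1.53 (SE 0.463, adjusted p 0.0318), with diet changes of 1.45 and -0.08. A shift common to a slide drops out of this term. Uqcrc1 and Ndufc1 passed under array median scaling, while Ndufa4l2 did not (0.64). Uqcrc1 and Ndufa4l2 passed in each of 16 fits without an array, and Ndufc1 in 9 of 16, with adjusted p up to 0.0586. Calls numbered 5 without the first standard-diet array or the fourth MCD array with agonist. The same term after hepatectomy gave 0 calls among the subunits in limma, with 2 at an unadjusted p under 0.05 and 0.0046% of all genes passing. In the baseline term 6 of 9 macrophage markers were lower (median -2.73), and their part was not tested.

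Hepatectomy comparisons set livers 2 weeks after surgery beside baseline livers of the same diet and treatment, so that longer feeding, slide and scanner cannot be told apart from surgery. In all 4 the median subunit was lower than the median gene: -0.333 against -0.0655 on the standard diet, -0.427 against -0.0167 on MCD, -0.169 against -0.0359 on the standard diet with agonist and -0.371 against -0.0676 on MCD with agonist. With quantile normalization these medians were 0.00 (0.00267), -0.325, 0.0672 and -0.0652, so the direction on the standard diet, without and with agonist, was not kept. Without the 3 arrays that stood apart the median was -0.19 on the standard diet, -0.113 with agonist and -0.303 on MCD with agonist. Subunits above 0 numbered 12, 8, 27 and 18 of 79 in that order.

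**Figure D5:**
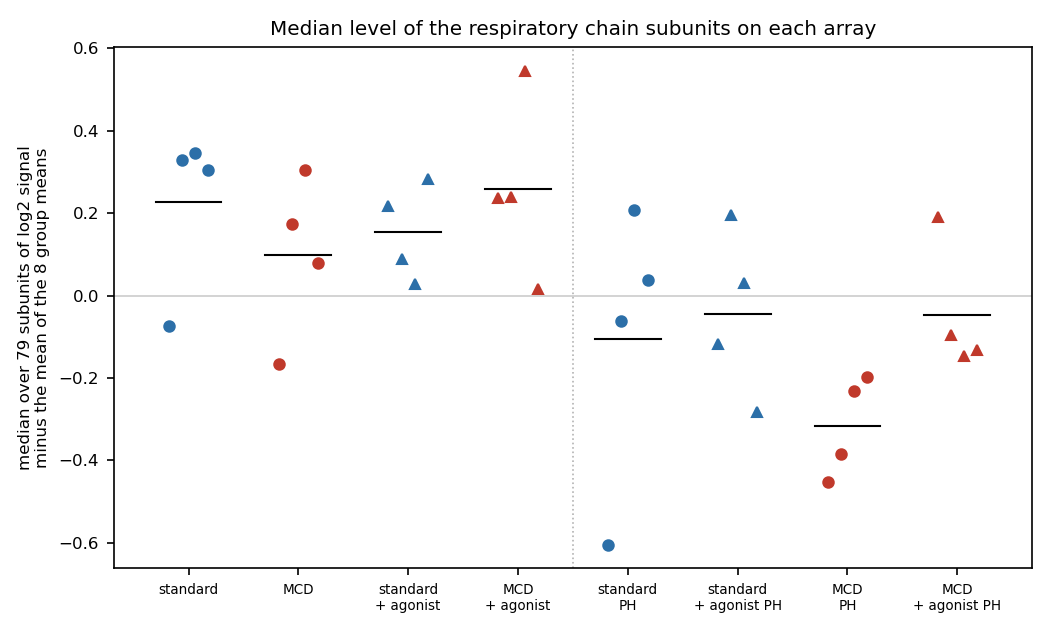
The vertical axis is, for each of 32 arrays, the median over 79 subunits of the log2 signal minus the gene's mean over the 8 group means, with bars for the group means and colours and shapes by diet and agonist (blue standard, red MCD, triangles with agonist). The MCD arrays after hepatectomy lie between -0.453 and -0.197, and the lowest array, at -0.605, is the first of the standard diet after hepatectomy.

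By array, the median deviation of the subunits averaged 0.226 ± 0.201 (SD, n = 4) on the standard diet, 0.0976 ± 0.199 on MCD, 0.155 ± 0.117 on the standard diet with agonist and 0.26 ± 0.218 on MCD with agonist. After hepatectomy the averages were -0.105 ± 0.351, -0.316 ± 0.122, -0.0444 ± 0.205 and -0.0467 ± 0.159 for the same 4 treatments. These values are a description over genes that share an array and carry no test.

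On the standard diet hepatectomy went with 3 rises and 5 falls (10.1% against 13.7% of all genes), or 3 and 1 with array median scaling and 3 and 0 with quantile normalization. The rises were Ndufc1 (1.201, SE 0.328, adjusted p 0.0155), Ndufc2 (1.32, SE 0.309, adjusted p 0.00581) and Uqcrfs1 (1.13, SE 0.341, adjusted p 0.0272). This comparison and that of the diets at baseline share the standard-diet baseline arrays, where these 3 genes are lowest. Ndufc1 after hepatectomy was at 4.78, 5.25, 5.81 and 5.69, and Ndufc2 at 5.22, 6.21, 6.19 and 5.84, both without overlap. The falls were Atp5d (-0.86, adjusted p 0.00984), the delta subunit of ATP synthase, Uqcrb (-0.85, adjusted p 0.0144), Ndufa8 (-0.79, adjusted p 0.042), Ndufa3 (-0.72, adjusted p 0.0326) and Cox7c (-0.69, adjusted p 0.0401). Without the first array after hepatectomy, which stood apart, the calls were 3 rises and 0 falls, beside 7.24% of all genes. They numbered 5 without the third or the fourth baseline array or the fourth after hepatectomy. Cox7c is another gene whose probes disagree, another probe showing 1.11. All 9 macrophage markers rose in this comparison (median 2.08, summed level 6.60 to 8.82 against 5.33 to 6.19) and 2 of 10 hepatocyte markers fell, while 2 of 8 neutrophil and 3 of 10 stellate cell and fibroblast markers rose, with their part not tested.

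On the MCD diet hepatectomy went with 6 falls and no rise (7.59% against 9.48%). The falls were Atp5b, the catalytic beta subunit of ATP synthase (-1.22, SE 0.396, 2.33-fold, adjusted p 0.0482), Atp5e (-0.65, SE 0.178, adjusted p 0.02), Ndufb9 (-0.87, adjusted p 0.0413), Ndufs5 (-0.86, adjusted p 0.0459), Ndufs1, the large iron-sulfur subunit that takes part in electron transfer (-0.68, adjusted p 0.0419), and Uqcrb (-0.72, adjusted p 0.0452). Atp5b was at 7.77, 8.22, 8.09 and 8.08 before and at 6.70, 6.42, 7.72 and 6.45 after, without overlap. No call was left without the second or the third baseline MCD array, and 1 without the first array after hepatectomy and 2 without the fourth at baseline. In these fits 6.42% to 7.51% of all genes passed. Of 8 neutrophil markers 4 rose in this comparison (median 3.22, summed level 2.52 to 4.59 before and 5.80 to 7.53 (7.525) after). Of 10 stellate cell and fibroblast markers 2 fell, of 5 cholangiocyte markers 1 fell, and 1 each rose of 9 macrophage, 8 endothelial, 8 lymphocyte, 4 adipocyte, 4 erythroid and 8 pancreatic acinar markers, while of 10 hepatocyte markers 0 passed. Their part in the subunit falls was not tested.

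With the agonist, hepatectomy on the standard diet went with 1 rise and 3 falls (5.06% against 7.39%), or 0 and 2 with array median scaling and 1 and 0 with quantile normalization. Ndufa4l2 rose by 0.66 (adjusted p 0.0346), from its low levels under agonist to 0.11, 0.52, 0.22 and 0.53. Ndufb11 (-0.92, adjusted p 0.0464), Cox7c (-0.87, adjusted p 0.0188) and Uqcrb (-0.85, -0.845, adjusted p 0.0247) fell, and Ndufb11 lost its call in each of 8 fits without an array. None of these calls was left without the first baseline array with agonist or without the fourth array after hepatectomy, which stood apart.

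On the MCD diet with agonist 9 subunits fell and none rose, or 3 and 3 with quantile normalization. Their share in either direction, 11.4%, was near the 10% of all genes, among which 812 rose and 1374 fell. Of the 9, 7 were in complex I (of 37 tested), led by 4 membrane-arm Ndufb genes: Ndufb11 (-1.001, adjusted p 0.025), Ndufb10 (-0.9982, SE 0.226, adjusted p 0.00647), Ndufb2 (-0.97, adjusted p 0.0179) and Ndufb8 (-0.92, SE 0.194, adjusted p 0.00422). Ndufb8 was at 7.64, 7.51, 7.81 and 7.56 before and at 7.05, 6.38, 6.60 and 6.80 after. Ndufb10 was at 7.60, 7.66, 8.19 and 7.52 before and at 6.72, 6.90, 6.71 and 6.66 after. Neither overlapped, and each kept its call in 8 of 8 fits without an array. Cox8a fell by 0.82 (adjusted p 0.0352) and Uqcr11 by 0.66 (adjusted p 0.0365). Probes of Ndufb11, Ndufb2 and Ndufv3 other than those used showed 0.66, 0.81 and 0.55. Without the 3 arrays that stood apart, 2 rose and 3 fell. Without the third baseline array alone, 2 rose and 2 fell, and 7.29% of all genes passed. Without the fourth 17 fell, beside 10.1% of all genes. Without the second, the third or the fourth array after hepatectomy 3 or 4 fell, beside 5.58% to 6.19% of all genes. Of 10 hepatocyte markers 4 fell (median -0.674, summed level 12.5 to 13.1 before and 11.9 (11.85) to 12.2 after) and 2 of 9 macrophage, 1 of 8 neutrophil and 3 of 8 pancreatic acinar markers rose, with their part not tested.

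Genes that serve the chain without being in the name rule were read from lists by function, against the 26% of all genes that passed on MCD at baseline and the 15.2% under agonist. Counts of a few genes in lists this short are a description and set no list apart. Among 34 assembly factors the MCD diet at baseline raised 5 and lowered 5 (median 0.0845), with Sco2, a copper chaperone of the oxidase, at -1.88 (adjusted p 6.46e-05 in limma) and Coa6, another oxidase assembly factor, at 1.58 (adjusted p 0.00981). Ttc19, which serves complex III assembly and the turnover of Rieske protein fragments, rose in all 4 diet comparisons, by 1.28, 0.9978, 1.37 and 1.33. Its levels at baseline were 0.96, 1.196, 1.31 and 0.94 on the standard diet and 2.09, 2.76, 2.22 and 2.43 on MCD. The third MCD array after hepatectomy had no usable Ttc19 spot, so that value is over 3 arrays. Of 8 further subunits outside the name rule, 2 rose (Atp5s and Atpif1, the ATPase inhibitor, each by 0.90) and 2 fell (Cox4i1, the general form of subunit IV, by 0.77 with an adjusted p of 0.0485, and Cox4i2, its lung and low-oxygen form, by 0.59). Hepatectomy on the standard diet lowered Cox4i1 by 1.08 (adjusted p 0.0136).

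The 13 subunits encoded in mitochondrial DNA, gave 2 falls on MCD at baseline (ND1 by 1.08, ND2 by 1.19; median of the 13, -0.409). Under agonist 1 of them passed, ATP6 at 1.30 (1.295). After hepatectomy on MCD their median was 0.412, with ND1 at 0.84 (adjusted p 0.0266), while the median of the nuclear subunits was -0.427. These opposite medians carry no test, and slide and surgery cannot be told apart in them. ND1, a core complex I subunit, was at 5.73, 4.84, 5.28 and 5.02 before and at 6.44, 5.93, 6.17 and 5.67 after.

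In ubiquinone synthesis and electron carriers 2 of 16 rose and 3 fell on MCD at baseline, led by Adck3, a kinase-like protein needed for ubiquinone synthesis (-2.18, adjusted p 3.47e-05), which also fell after hepatectomy without (-1.90) and with agonist (-1.59, -1.585). Coq7, a hydroxylase of the same pathway, rose by 0.98 without and 1.67 with agonist. Cycs, cytochrome c itself, was 0.67 higher on MCD without passing (adjusted p 0.0714). Of 13 tricarboxylic acid cycle genes 2 rose (Cs, citrate synthase, by 0.99, and Mdh2 by 0.91) and 3 fell on MCD at baseline, and under agonist 4 rose and 0 fell. Of 12 genes for mitochondrial DNA maintenance 1 rose and 1 fell on MCD at baseline.

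Among 11 regulators of mitochondrial biogenesis Esrra, an estrogen-related receptor, rose on MCD at baseline (0.86, adjusted p 0.0164) and Nrf1 fell (-0.72, adjusted p 0.0306). Ppargc1b, a coactivator in the same network, was at 0.73, -1.44, -1.17 and -2.05 on the standard diet, at -5.77, -5.04, -3.88 and -3.73 with agonist, of which 2 of 4 were well above background, and at -0.24, -1.30, -0.97 and 0.32 on MCD with agonist. With part of the agonist group not well above background, no size is given for its difference. Ppargc1a, Gabpa and Tfam, which encode the best known coactivator, an ETS factor and the mitochondrial transcription factor, passed in none of the 14 comparisons. Among 4 uncoupling and adenine nucleotide carriers, Ucp2 fell with agonist on MCD at baseline (-1.501, adjusted p 0.0154), from 1.54, 0.49, 0.51 and 0.64 to -0.47, -0.65, -1.49 and -0.21.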

How the data were processed

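Total RNA of 32 livers was hybridised to 1-colour Agilent mouse arrays of 62976 spots, read by the authors with Feature Extraction 10.7.3.1, per the file headers. The deposited values used are processed signals, which are intensity values already corrected for background, per the file headers. The submitters' own log2 table is the authors' processed version of the same arrays, with its centring not given in the sources used here, and served as an alternative. The submitters' processing notes name limma with no version.

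Control spots (3671 per array) and 5010 outlier spots (0.264%) were left out, and spots of a probe were averaged. Signals were scaled to the 75th percentile of each array and taken as log2. The filter kept 30166 probes, for which some group had its 4 arrays well above background. A gene is read by its brightest such probe. A single limma 3.58.1 model over 8 groups (R 4.3.3, 24 residual degrees of freedom) gave 14 comparisons with Benjamini-Hochberg adjustment over 21756 genes. The code was tested on simulated data for the MCD diet at baseline. It called 30% of log2 changes of 1 and 79% of log2 changes of 2, so a gene that did not pass may still have changed.

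The arrays of a group were treated as independent livers. The p-values weigh a difference of group means against the spread between livers within groups. Same-numbered arrays of different groups had a mean r of 0.0223, with 17 of 112 pairs over 0.1. For differently numbered arrays the mean r was -0.00664, with 33 of 336 pairs over 0.1. These values do not show that a shared deviation is absent. Replicate numbers, which are also the array columns on each slide, were not taken as pairs in the main model. Members and lists were chosen with earlier results of these data known. Genes named are, per comparison, up to 4 called members per complex by size, the tissue isoforms, the members called most often and called genes of the lists. Where no member of a complex was called, its widest values are named. Alternatives were the background correction, 2 other scalings, the dim-probe filter, the mean over probes, outlier spots, a replicate block, a fit on only the groups compared, the submitters' table, and leaving out arrays.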

Additional observations from a re-analysis of the deposited data

Results flagged for a closer look

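In 8 of 80 groups of 4 arrays, 1 value lay far from the other 3, where chance gives about 1 in 20. Of these, 2 were on the fourth array of the standard diet with agonist after hepatectomy, which also stood apart on the diet scale: Cox7a1 at 0.92 (0.9162), below 2.46 to 2.67 on the others, and Ndufc2 at 5.60 (5.601). The first array of the MCD diet with agonist after hepatectomy held 3: Ndufc1 at 5.74 (5.743), Uqcrb at 6.37 (6.368) and the median deviation over all subunits at 0.19. The others were Uqcrc1 on the fourth MCD array after hepatectomy at 4.36 (4.357), Ndufa4l2 on the fourth baseline MCD array at 0.94 (0.9381), and the median deviation on the first standard-diet array at -0.0746, against 0.304 to 0.346 on the other 3.

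The diet effect at baseline differed by agonist, by the interaction term in limma, for Uqcrc1 (1.69, adjusted p 0.000977), Ndufa4l2 (1.17, adjusted p 0.00739) and Ndufc1 (-1.53, adjusted p 0.0318). After hepatectomy none of the 79 subunits passed this term (lowest adjusted p 0.944, 2 with an unadjusted p under 0.05).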

How the results depend on the processing

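With the replicate block, which changed 6 of 59 single-gene calls, the subunits called numbered 9 for the MCD diet at baseline, 5 under agonist, 3 and 2 for the agonist at baseline on the standard and MCD diets, 7 and 2 for the MCD diet after hepatectomy without and with agonist, 9, 6, 3 and 10 for hepatectomy on the standard diet, MCD, standard diet with agonist and MCD with agonist, 3 for the baseline interaction and 0 for the rest. Of the arrays, 12 of 32 correlated best with their own number.

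On MCD at baseline the count of 10 was 19 with normexp background correction and 3 in the submitters' table as deposited. Under agonist, 5 was 3 with normexp, 3 with no filter on dim probes, 1 with only the groups compared, 11 in the table as deposited and 2 with its columns placed at the matching arrays. For the agonist on the standard diet, 3 was 7 with normexp, 0 with only the groups compared and 12 in the table. For the agonist on MCD, 2 was 22 with normexp, 6 with array median scaling, 4 with quantile normalization, 1 with the mean over probes and 11 in the placed table. The agonist counts of 0 after hepatectomy were 10 on the standard diet and 2 on MCD in the table as deposited.

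On MCD after hepatectomy, 7 was 3 with normexp, 4 with median scaling, 3 with no filter, 3 with only the groups compared, 0 in the table and 12 without the 3 arrays that stood apart, a setting chosen after seeing the data. Under agonist, 2 was 1 with median scaling, 1 with no filter, 1 with only the groups compared and 0 in the table. Hepatectomy on the standard diet gave 17 with normexp, 4 with median scaling, 3 with quantile normalization, 5 with no filter, 5 with the mean over probes, 2 with only the groups compared and 3 without the 3 arrays, against 8. On MCD, 6 was 2 with normexp, 3 with quantile normalization and 1 with no filter. On the standard diet with agonist, 4 was 25 with normexp, 2 with median scaling, 1 with quantile normalization, 2 with no filter, 1 with the mean over probes, 2 with only the groups compared and 2 without the 3 arrays. On MCD with agonist, 9 was 33 with normexp, 2 with median scaling, 1 with only the groups compared and 5 without the 3 arrays. The interaction count of 3 was 6 with normexp. These counts are given without the share of all genes in each setting, so they do not show a move particular to the subunits. The cause of these moves was not tested.

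Leaving out each array in turn gave, in the order of the opening sentence, 7 to 12 and 3 to 6 calls, 1 to 4 and 1 to 6, 2 to 10 and 1 to 3, 3 to 10, 0 to 5, 0 to 3 and 3 to 17, 2 to 5, and 0 for the rest. The share of all genes moved too, for hepatectomy on MCD with agonist from 10% to between 5.58% and 10.1%.

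Single genes changed sign in a few settings. In the table as deposited these were Ndufa3 (0.14), Ndufa6 (0.0866) and Ndufa8 (-1.06, from -1.055) on MCD at baseline, Cox6a2 (-0.27) and Ndufc2 (-0.27) under agonist, Ndufb11 (-0.24) for the agonist on MCD, Cox7a1 (0.20) and Ndufa6 (0.0759) on MCD after hepatectomy, and Cox6a2 (-0.39) and Cox7a1 (0.69) with agonist. With the mean over probes they were Ndufa3 on MCD at baseline (0.12) and Cox7c after hepatectomy on the standard diet without (0.0590) and with agonist (0.0314). With normexp, Ndufb7 was at 0.11 for hepatectomy on MCD with agonist. Outside the table as deposited, 673 of 1040 refitted single-gene calls were kept, 363 no longer passed and 4 changed sign. A slide block was not run, since each group lies on 1 slide. Hepatectomy was not computed from the table, whose baseline and hepatectomy columns have medians of 6.53 to 6.55 and 7.05 to 7.06. Probes well above background were 43.2% to 69.2% per array, which limits dim genes such as Cox8b and Ppargc1b.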
